A study of Rattus norvegicus with 4 samples.

Results

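The genes described here encode the constitutive 26S proteasome, its assembly factors and its alternative caps, measured in the epithelium around a titanium implant and in the epithelium around a tooth. A probe set was taken where its single symbol in the platform annotation began with Psm, a letter from a to g and a digit. The interferon-inducible Psmb8, Psmb9, Psmb10, Psme1 and Psme2 were left out. Where several probe sets named a gene, the brightest on average stood for it, which gave 41 of the 14217 genes tested. Of these, 39 are proteasome genes. Psmc3ip, a meiotic recombination cofactor, and Psme3ip1, a binding partner of a proteasome cap, matched by their spelling only. Probe sets of Psmb6 and Psme3 carried several symbols each and were not used, and Psma8 and Psmb11 were not matched.

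The study set peri-implant epithelium (2 arrays), which grows around an implant of titanium alloy where an upper molar was extracted, against junctional epithelium (2 arrays), the collar that seals gingiva to tooth. The male rats (Sprague-Dawley, 20 in the study) had surgery at 4 weeks of age and were sampled 4 weeks after the implant was placed, and both groups carry the label of tooth extraction and implant placement. Tissue was cut by laser microdissection and the RNA was amplified before hybridization. No label says how many animals entered each array or that arrays came from separate animals, so p-values measure the spread between these samples only, which may be technical.

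Of 8 epithelial markers fixed for the label check, 7 were measured, all above background on every array. Among them Krt5 stood at 16.23 and 15.87 in peri-implant and 15.84 and 15.87 in junctional epithelium (log2 signal). Fibroblast markers were also bright, with Col1a1 at 14.40 and 14.30 in peri-implant and 14.00 and 14.06 in junctional samples. Background was a log2 signal of 6.42, the highest value reached by the 27 control probe sets for bacterial transcripts, and between 54.6% and 56.8% of probe sets exceeded it on each array. In such bulk tissue, fewer cells of a type and less RNA per cell cannot be told apart. Precision is limited by the number of arrays.

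The proteasome degrades proteins tagged with ubiquitin. Its core is a barrel of alpha and beta rings, with the proteolytic sites inside the beta rings. A regulatory cap of ATPases and non-ATPase subunits recognizes, unfolds and feeds in the substrate. In cells exposed to interferon-gamma, the catalytic subunits Psmb5, Psmb6 and Psmb7 are replaced in new barrels by Psmb8, Psmb9 and Psmb10, which changes the peptides offered to MHC class I molecules. When proteasome activity falls short, the factor Nfe2l1 raises transcription of the constitutive genes through antioxidant response elements in their promoters.

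Promoters were examined for both routes, in the 300 bases from 250 before to 50 after the annotated start site (RefSeq, GRCr8), for the 37 members with an entry. Psma7, Psmd6, Psmd12 and Psmd14 had no entry. Psmc3ip and Psme3ip1, which matched by spelling only, are among the 37. The antioxidant response element core TGACNNNGC, read on both strands, was found in 7 of the 37 (18.9%), against 12.2% of all 27457 promoters. The interferon-stimulated response element, searched as GAAA, any 2 bases and GAAA on both strands, was found in 4 of the 37 (10.8%), against 3.77% of all promoters, and in 3 of the 5 interferon-inducible genes left out by the rule, namely Psmb8, Psmb10 and Psme2. The CCAAT box, read on both strands, stood in 20 of the 37 (54.1%), Psmc3ip and Psme3ip1 among them, against 37.7%. A match describes letters in a window and is not a binding site.

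Below are the promoters of the paired catalytic subunits Psmb5 and Psmb8, and of Psmd1 and Psmd5, the members with the largest positive and negative difference. Matches to the antioxidant or interferon element are in capitals, and neither element overlapped the other. In Psmb5 (chr15:32047330-32047629, minus strand) the antioxidant element began 60 bases before the start site. In Psmb8 (chr20:4656982-4657281, minus strand) the interferon element began 4 bases before it. In Psmd1 (chr9:94157721-94158020, plus strand) the 2 antioxidant matches began 165 bases before the start site and at its base 23. In Psmd5 (chr3:38548441-38548740, minus strand) neither element was found. Matches were not tested against the differences. Among other members, Psmf1 and Psmd10 (differences 0.48 and 0.40) held no antioxidant match, Psma3 (0.27) held 1 and Psmd9 (-0.10) held 2.
Psmb5: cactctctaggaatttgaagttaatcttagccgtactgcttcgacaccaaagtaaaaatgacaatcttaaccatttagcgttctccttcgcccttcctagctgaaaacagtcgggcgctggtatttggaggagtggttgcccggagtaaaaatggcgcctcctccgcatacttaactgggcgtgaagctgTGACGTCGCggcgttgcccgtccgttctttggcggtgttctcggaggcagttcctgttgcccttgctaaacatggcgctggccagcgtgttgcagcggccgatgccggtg
Psmb8: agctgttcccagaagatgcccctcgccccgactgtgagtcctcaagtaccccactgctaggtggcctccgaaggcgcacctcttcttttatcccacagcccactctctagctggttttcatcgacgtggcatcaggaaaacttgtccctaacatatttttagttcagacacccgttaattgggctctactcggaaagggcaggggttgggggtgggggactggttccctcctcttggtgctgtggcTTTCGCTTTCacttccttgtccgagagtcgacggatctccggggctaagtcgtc
Psmd1: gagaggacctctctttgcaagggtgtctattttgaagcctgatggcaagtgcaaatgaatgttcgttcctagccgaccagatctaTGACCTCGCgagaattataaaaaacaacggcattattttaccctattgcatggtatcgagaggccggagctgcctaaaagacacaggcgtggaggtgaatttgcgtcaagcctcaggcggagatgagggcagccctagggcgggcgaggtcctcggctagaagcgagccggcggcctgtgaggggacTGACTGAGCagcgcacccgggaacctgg
Psmd5: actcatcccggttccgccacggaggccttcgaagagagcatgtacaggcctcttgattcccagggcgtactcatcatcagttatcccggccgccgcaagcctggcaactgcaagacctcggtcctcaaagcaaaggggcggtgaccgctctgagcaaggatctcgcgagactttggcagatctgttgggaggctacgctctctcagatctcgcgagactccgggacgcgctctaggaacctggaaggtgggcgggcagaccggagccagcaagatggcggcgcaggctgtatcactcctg

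Transcripts of the constitutive proteasome differed little between the epithelia. No member differed by 1.5-fold or more on the probe set that stood for it. By contrast, 38.2% of all genes and 19.4% of the 8814 genes above background on all arrays did. All 41 members were above background on all arrays. A dimmer probe set of Psmd14, also above background, did differ by more than 1.5-fold, as described below. The differences ran from -0.47 for Psmd5 to 0.51 for Psmd1 (log2, peri-implant minus junctional). Their median was 0.06, against 0.05 over all genes tested. The median absolute difference was 0.11 for the members and 0.27 for genes above background, and the median SD between replicates was 0.10 and 0.14 for these sets. The sets were not matched for signal, and low signals vary more between replicates than bright ones. No member fell below 8.12 on any array, whereas the genes above background start at 6.42. Whether the small differences are particular to the members was not tested. For 32 members the whole 95% interval of limma, with an intensity trend in its prior variance, lay within 1.5-fold in either direction. The same held for 24.7% of all genes and 39.9% of genes above background. These intervals rest on that prior, and none from limma's default prior is given.

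With limma using an intensity trend in its prior variance, 1 member rose and 0 fell at an adjusted p below 0.05 over all genes (Benjamini-Hochberg). Over all genes 7.39% rose and 5.34% fell, 12.7% in all. Of the genes above background on all arrays, in the same fit, 9.69% rose and 7.74% fell, 17.4% in all. The trend fit is reported knowing that the default prior passes no gene. With limma's default prior 0 members passed, as did 0% of all genes, and the smallest adjusted p of a member was 0.204. Before adjustment, 11 of 41 members (26.8%) had p under 0.05 with the trend, against 28.5% of all genes and 36.2% of those above background. With the default prior 1 did, against 20.1% and 20.3%. Both peri-implant arrays lay above both junctional arrays for 19 members (46.3%, against 31.2% of all genes and 34.2% of those above background), and below them for 3 (7.32%, against 25.2% and 29.2%). The difference was above 0 for 32 members with the deposited scaling, against 53.8% of all genes and 53.3% of those above background. It was above 0 for 32 with quantile normalization (52% of all genes), but for 21, with 20 below 0, after centring each array on its median (49.9% of all genes). The number of positive differences therefore depends on the scaling of the arrays.

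**Figure D1:**
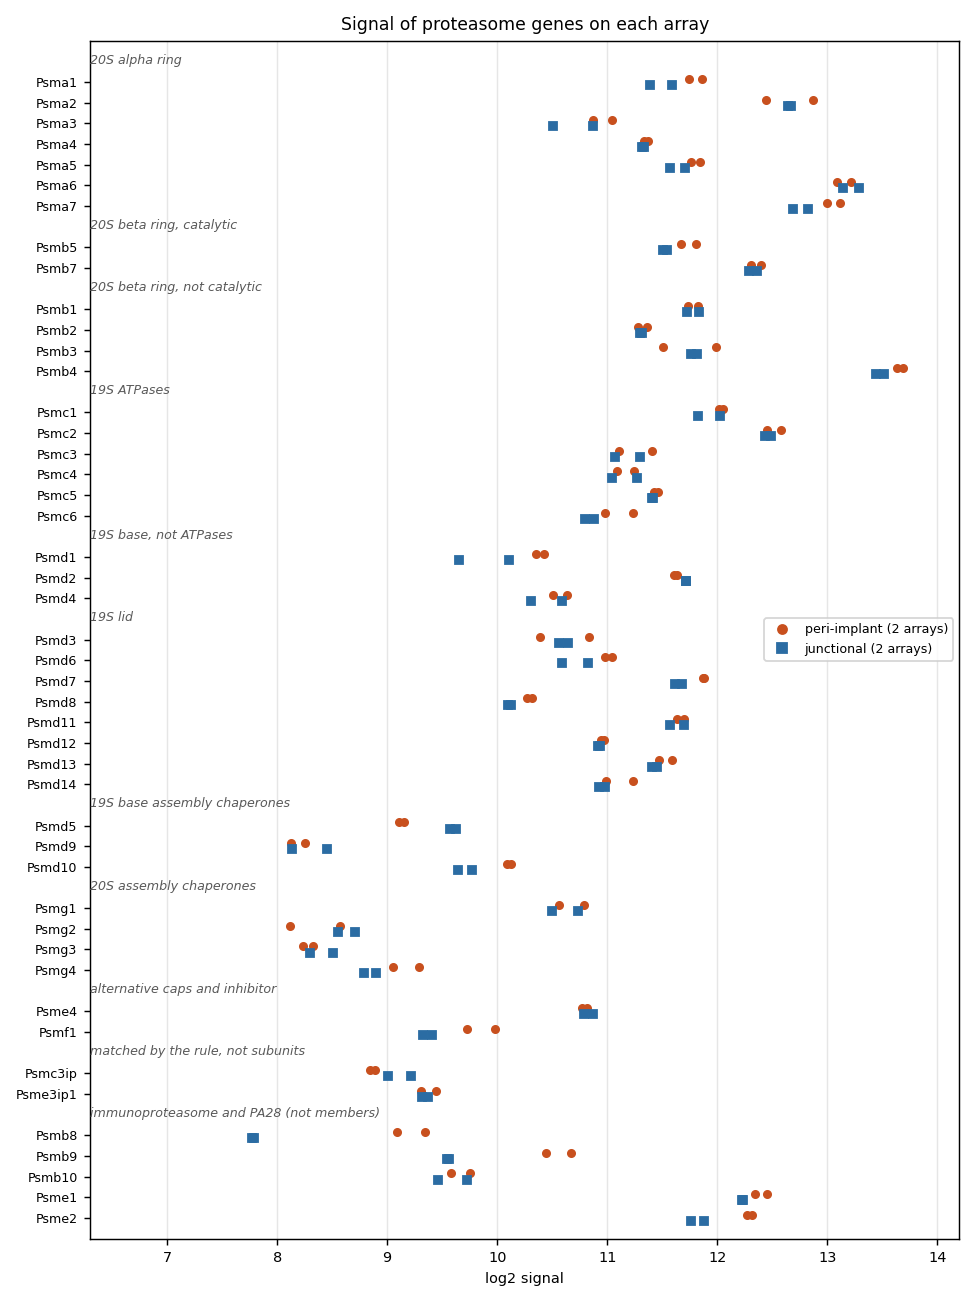
Log2 signal (x axis) of each proteasome gene on each array, by role (rows), with peri-implant arrays as circles and junctional arrays as squares, and the 5 interferon-inducible genes at the bottom. The 41 members lie close together between the epithelia, whereas Psmb8 (peri-implant 9.09 and 9.34, junctional 7.79 and 7.77) and Psmb9 separate more widely.

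The alpha ring, which gates the entry to the core, had 7 measured members, of which 1 rose, 0 fell and 6 did not pass. Their median difference was 0.16. Psma7 had log2 signals of 13.11 and 13.00 in peri-implant epithelium, against 12.69 and 12.82 in junctional epithelium. Both peri-implant arrays stood above both junctional arrays, and the gene rose by 0.30 (1.23-fold, 95% interval 0.11 to 0.49, adjusted p = 0.0484, limma with an intensity trend). This call was lost under 9 of 14 alternative settings, with adjusted p from 0.0228 to 0.345 over all of them, and without any single array, where it was 0.100 to 0.301.

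Psma1 differed as much, with 11.86 and 11.74 in peri-implant and 11.59 and 11.39 in junctional epithelium, a difference of 0.31 (adjusted p = 0.0747, limma with an intensity trend). The groups did not overlap. The lowest difference in this ring was -0.06, for Psma6, at 13.22 and 13.09 in peri-implant and 13.28 and 13.14 in junctional samples, which overlapped. Psma2 varied between the peri-implant arrays themselves, at 12.87 and 12.45, against 12.67 and 12.64 in junctional samples.

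The beta rings had 6 measured members and none passed. Psmb5, which carries the chymotrypsin-like activity, stood at 11.81 and 11.67 in peri-implant and 11.51 and 11.54 in junctional epithelium. The groups did not overlap, and the difference was 0.21 (95% interval 0.01 to 0.42, adjusted p = 0.158, limma with an intensity trend). Psmb7, which carries the trypsin-like activity, stood at 12.40 and 12.30 in peri-implant and 12.36 and 12.28 in junctional epithelium. These overlapped, and the difference of 0.03 had an interval from -0.16 to 0.21. Among the beta subunits without a catalytic site, Psmb4 had the highest difference. It stood at 13.68 and 13.63 in peri-implant and 13.44 and 13.51 in junctional samples. Psmb3 had the lowest, at 11.51 and 11.99 in peri-implant and 11.82 and 11.76 in junctional samples, so that the junctional values lay between the peri-implant values.

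The 6 ATPases form the ring that unfolds substrates and threads them into the core. None passed. Their differences ran from 0.01 to 0.27 with a median of 0.07, although Psmc4 and Psmc5 were below 0 after arrays were centred, and 2 of the 6 had both peri-implant arrays above both junctional arrays, near the 31.2% of all genes that did. Psmc6 was the highest, at 10.98 and 11.23 in peri-implant and 10.79 and 10.88 in junctional epithelium (adjusted p = 0.157, limma with an intensity trend). Psmc4 was the lowest, at 11.09 and 11.25 in peri-implant and 11.05 and 11.27 in junctional epithelium, with overlap.

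The other base subunits and the lid dock substrates and remove their ubiquitin, and none of these 11 members passed. Psmd1, a large scaffold of the base, stood at 10.42 and 10.36 in peri-implant and 10.10 and 9.65 in junctional epithelium. The groups did not overlap, and the difference of 0.51 (1.43-fold) had an interval from 0.15 to 0.87 (adjusted p = 0.0679, limma with an intensity trend). Its neighbour in the base, Psmd2, stood at 11.63 and 11.61 in peri-implant and 11.72 and 11.71 in junctional epithelium. It was lower without overlap, as were 25.2% of all genes. The difference of -0.10 had an interval from -0.28 to 0.09, which includes 0 (adjusted p = 0.506, limma with an intensity trend). Psmd4, a ubiquitin receptor of the base, overlapped.

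On their representative probe sets, all 8 lid subunits had differences above 0 with the deposited scaling (53.8% of all genes) and with quantile normalization (52%). Psmd3, Psmd11 and Psmd12 were below 0 after centring. Dimmer probe sets of Psmd7 and Psmd11 were below 0 and those of Psmd14 above it, as described below. With the deposited scaling the 8 representative differences ran from 0.01 to 0.30 with a median of 0.13. Of the 8, 6 had both peri-implant arrays above both junctional arrays (31.2% of all genes, 34.2% of those above background). Psmd6 was the highest, at 10.98 and 11.04 in peri-implant and 10.59 and 10.83 in junctional epithelium (adjusted p = 0.118, limma with an intensity trend). Psmd3 was the lowest, at 10.83 and 10.39 in peri-implant and 10.64 and 10.56 in junctional epithelium, with overlap.

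**Figure D2:**
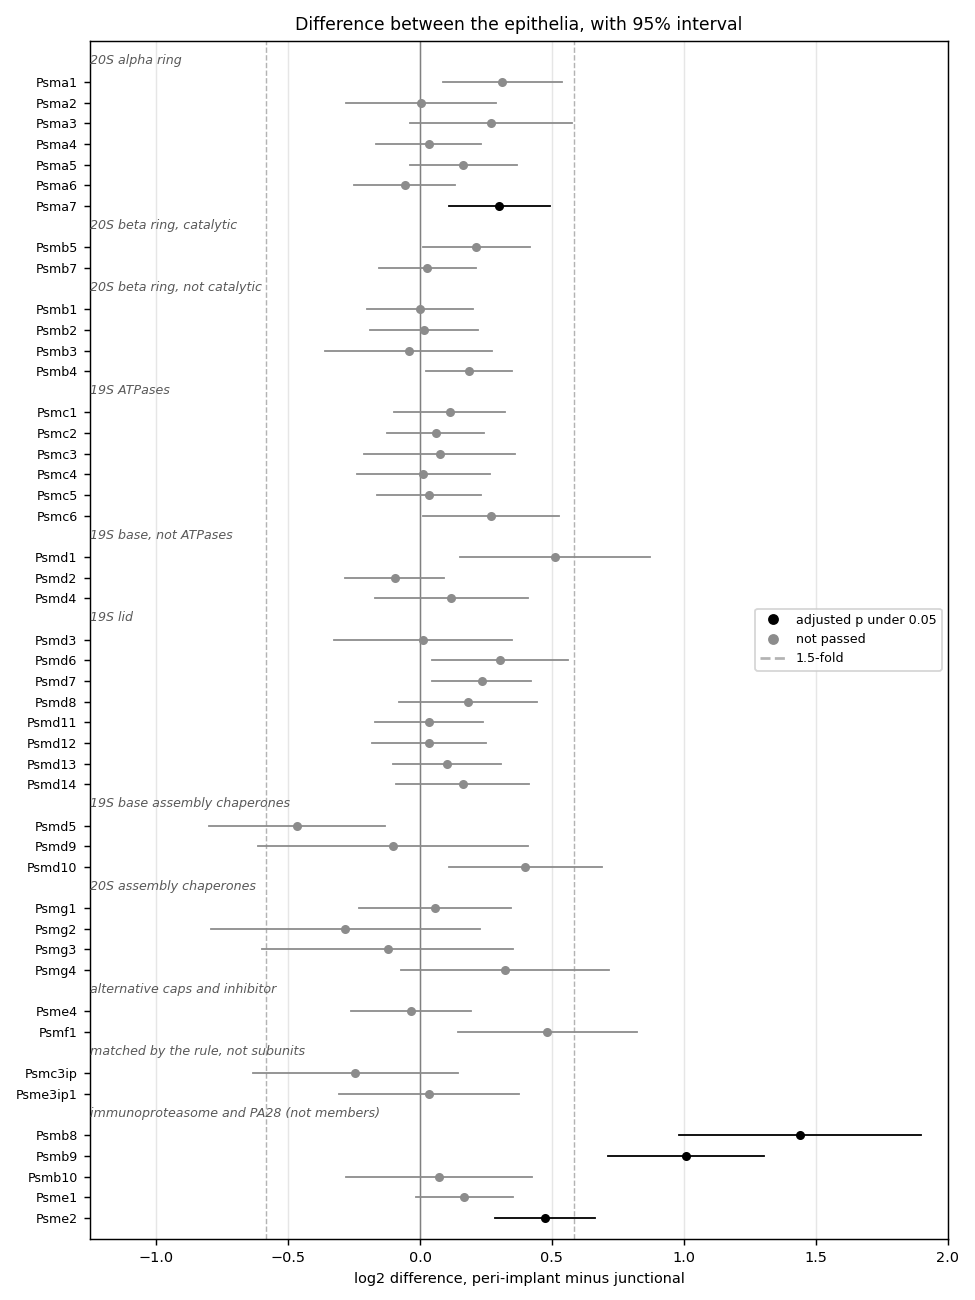
Log2 difference, peri-implant minus junctional (x axis), of each gene with its 95% interval from limma with an intensity trend, by role (rows). Dashed lines mark 1.5-fold, and black marks genes with an adjusted p under 0.05, which are Psma7 among the 41 members and Psmb8, Psmb9 and Psme2 among the 5 genes left out by the rule.

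The assembly factors include the lowest difference of all members. Of the 3 chaperones of the base, 0 passed. Psmd10, also known as gankyrin, stood at 10.12 and 10.09 in peri-implant and 9.77 and 9.64 in junctional epithelium, a difference of 0.40 without overlap (adjusted p = 0.0754, limma with an intensity trend). Psmd5 stood at 9.11 and 9.15 in peri-implant and 9.57 and 9.62 in junctional epithelium, a difference of -0.47 without overlap (95% interval -0.80 to -0.13, adjusted p = 0.0720). These chaperones of the same assembly pathway thus had differences of opposite sign. Psmd9 overlapped, with a difference of -0.10.

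Of the 4 chaperones that guide assembly of the core, 0 passed. Psmg4 was the highest, at 9.05 and 9.29 in peri-implant and 8.90 and 8.79 in junctional epithelium, without overlap. Psmg2 was the lowest, at 8.12 and 8.58 in peri-implant and 8.70 and 8.55 in junctional epithelium, with overlap and an interval from -0.79 to 0.23. The whole interval of the trend fit lay within 1.5-fold for 1 of these 4 and 0 of the 3 base chaperones. It did so for 13 of 13 core subunits and 16 of 17 subunits of the ATPase ring, base and lid. For most chaperones a change of that size is therefore not bounded by these arrays. By the mean of each group, these chaperones were all dimmer than all 13 core subunits. On single arrays the same held apart from Psmg1, which stood above Psma3 on 1 junctional array (10.74 against 10.51). Low signals vary more between replicates, and the contrast was not adjusted for signal.

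Psmf1, known as an inhibitor of the isolated core, stood at 9.98 and 9.72 in peri-implant and 9.33 and 9.41 in junctional epithelium. The groups did not overlap, and the difference was 0.48 (1.40-fold, 95% interval 0.14 to 0.82, adjusted p = 0.0685, limma with an intensity trend). Psme4, an alternative cap of the core, stood at 10.77 and 10.82 in peri-implant and 10.79 and 10.87 in junctional epithelium, with overlap. Of the genes matched by spelling only, Psme3ip1 stood at 9.44 and 9.30 in peri-implant and 9.37 and 9.31 in junctional samples, with overlap. Psmc3ip stood at 8.885 and 8.846 in peri-implant and 9.005 and 9.218 in junctional samples, without overlap (adjusted p = 0.396, limma with an intensity trend).

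Psma1, Psmd1, Psmd10, Psmf1 and Psmd5 had adjusted p between 0.0679 and 0.0754 and lay just outside the threshold. When only genes above background on all 4 arrays were tested, these 5 passed together with Psma7, which gave 5 higher members and 1 lower, Psmd5. That is 14.6% of the members, against 24.6% of all genes tested in that setting. Without any single array, 0 members passed in either direction.

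Different probe sets of a gene did not always agree. The 41 members had 54 probe sets, of which 5 were not above background on all arrays, and 5 genes had more than 1 probe set above it. In the fit over all 31042 probe sets, 8.9% passed. Psmd14, the deubiquitinase of the lid, differed by 0.16, 0.41 and 0.69 on its probe sets, from the brightest to the dimmest. The brightest, which represents the gene, did not pass (adjusted p = 0.423), and the other two did (adjusted p = 0.0422 and 0.0112, limma with an intensity trend). On the dimmest, Psmd14 stood at 10.25 and 10.39 in peri-implant and 9.62 and 9.63 in junctional epithelium, a difference beyond 1.5-fold. On each of the 3, both peri-implant arrays lay above both junctional arrays.

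Psmd7, a lid subunit that pairs with Psmd14, gave opposite directions. Its representative probe set stood at 11.88 and 11.87 in peri-implant and 11.61 and 11.68 in junctional epithelium. Its other probe set stood at 11.39 and 11.36 in peri-implant and 11.67 and 11.77 in junctional epithelium, lower by 0.34 (adjusted p = 0.0436, limma with an intensity trend). Psmc6 also split, with 0.27, -0.20 and 0.25, and the other bright probe set of Psmd11 differed by -0.25, against 0.03 on the representative one. The 3 probe sets of Psme4 were all below 0, at -0.03, -0.19 and -0.28. For Psmd7, Psmc6 and Psmd11, then, the sign of the difference depends on the probe set. Among their probe sets above background, only the lower one of Psmd7 passed. Those of Psmc6 and Psmd11 had adjusted p from 0.180 to 0.864 (limma with an intensity trend), so no direction is established for these genes. Of the 41 members, 15 have pseudogenes named after them in the reference table, 35 in all, and hybridization to their transcripts was not tested.

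**Figure D3:**
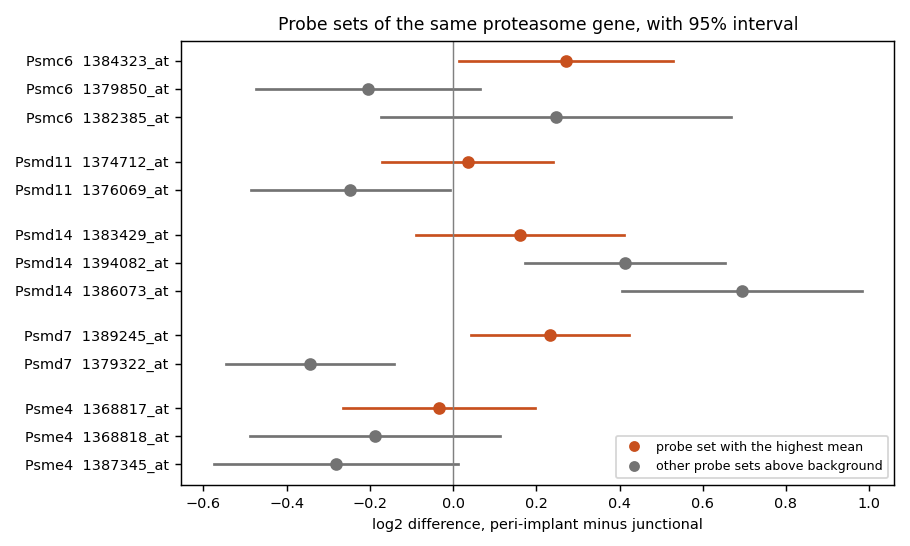
Log2 difference, peri-implant minus junctional (x axis), with 95% intervals from the fit over all probe sets, for each probe set above background of the 5 members that have more than 1. Psmd7, Psmc6 and Psmd11 have probe sets on both sides of 0, whereas those of Psmd14 run from 0.16 to 0.69.

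Psmb8 and Psmb9 differed by more than any member. Of the 5 interferon-inducible genes left out by the rule, 3 rose, 0 fell and 2 did not pass. Psmb8 stood at 9.09 and 9.34 in peri-implant, against 7.79 and 7.77 in junctional epithelium, and rose 2.71-fold (adjusted p = 0.00283, limma with an intensity trend). Psmb9 stood at 10.44 and 10.67 in peri-implant, against 9.56 and 9.54 in junctional epithelium, and rose 2.01-fold (adjusted p = 0.00202). In both, the peri-implant arrays were clear of the junctional arrays by more than the gap between replicates.

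Psme2, a subunit of the interferon-inducible cap, stood at 12.27 and 12.32 in peri-implant and 11.88 and 11.76 in junctional epithelium, and rose 1.39-fold (adjusted p = 0.00863, limma with an intensity trend). Its partner Psme1 stood at 12.34 and 12.45 in peri-implant and 12.23 and 12.23 in junctional epithelium, a difference of 0.17 (adjusted p = 0.214). Psmb10 overlapped between the groups, at 9.76 and 9.58 in peri-implant and 9.73 and 9.46 in junctional epithelium. Its promoter holds 2 matches to the interferon element, those of Psmb8 and Psme2 hold 1 each, and those of Psmb9 and Psme1 hold none. Whether matches go with the differences was not tested. With limma's default prior none of the 5 passed, and without single arrays the adjusted p reached 0.0639 for Psmb8, 0.0587 for Psmb9 and 0.108 for Psme2.

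Set against its constitutive counterpart within each array, Psmb8 minus Psmb5 was -2.71 and -2.33 in peri-implant and -3.72 and -3.78 in junctional epithelium (log2 signal difference). The shift between the epithelia was 1.23, or 2.34-fold. Psmb10 minus Psmb7 was -2.64 and -2.73 in peri-implant and -2.63 and -2.83 in junctional epithelium, a shift of 0.04. An exact two-sided permutation test gave p = 0.333 and p = 1, and p = 0.667 and p = 1 after adjustment over these 2 relations. With 2 arrays a group the test cannot go below 0.333. Psmb9 could not be paired because the probe set of Psmb6 carried 2 symbols.

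**Figure D4:**
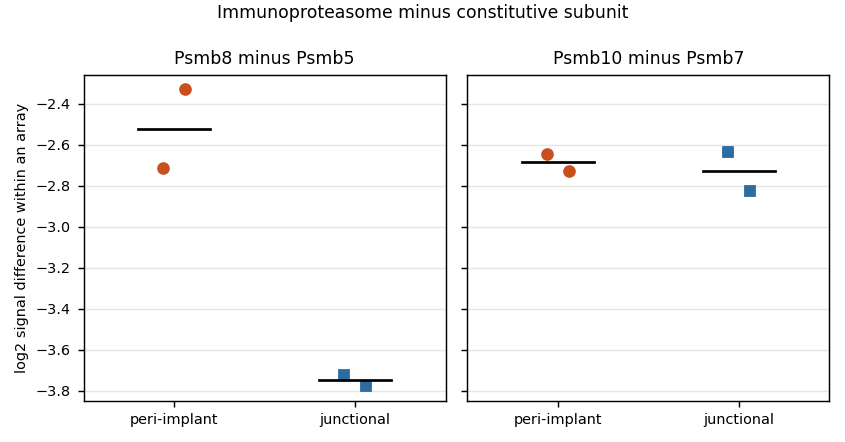
Log2 signal of the interferon-inducible subunit minus that of its constitutive counterpart on the same array (y axis), for both epithelia (x axis), with 2 arrays each as points and their mean as a line. Psmb8 minus Psmb5 averages -2.52 in peri-implant and -3.75 in junctional epithelium, and Psmb10 minus Psmb7 averages -2.69 in peri-implant and -2.73 in junctional epithelium.

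In the arrays where Psmb8, Psmb9 and Psme2 rose, leukocyte markers were higher as well. The summed linear signal of 5 leukocyte markers (Ptprc, Lcp1, Coro1a, Cd53 and Cd52) was 3454 and 3685 in peri-implant and 1831 and 1655 in junctional epithelium. Of these, 4 rose and Cd52 was below background. That of 9 macrophage markers was 6008 and 6701 in peri-implant and 3830 and 3419 in junctional epithelium, and 4 of the 9 rose. That of 7 neutrophil markers was 4195 and 4089 in peri-implant and 1879 and 1947 in junctional epithelium, and 4 of the 7 rose. The neutrophil markers Mmp8 and Itgam were below background on every array. Of 7 measured lymphocyte markers, 1 rose, Cd2 (4.50-fold, adjusted p = 0.0115, limma with an intensity trend), which was below background on both junctional arrays. On every array 4 of the 7 were at or below background, among them Gzmb, which was at 0 on 1 junctional array. The sum of all 7 was 528 and 622 in peri-implant and 168 and 256 in junctional epithelium. The part of these cells in the changes was not tested.

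Endothelial markers summed to 1655 and 1504 in peri-implant and 1552 and 1862 in junctional epithelium, with 5 of 6 measured. None of the 5 passed, and their differences had both signs. They were -0.98 for Tek, -0.84 for Vwf, -0.06 for Kdr, 0.09 for Pecam1 and 0.87 for Tie1. Fibroblast markers summed to 49650 and 49568 in peri-implant and 43659 and 43777 in junctional epithelium, with 7 of 7 measured. Within this list Col1a1 rose 1.25-fold (adjusted p = 0.0215) and Pdgfra fell, 2.06-fold lower in peri-implant epithelium (adjusted p = 0.00529, limma with an intensity trend). The 7 epithelial markers summed to 223859 and 190346 in peri-implant and 172704 and 177644 in junctional epithelium. Krt17 rose 3.55-fold (adjusted p = 3.76e-06) and Itgb4 fell, 1.37-fold lower in peri-implant epithelium (adjusted p = 0.00650, limma with an intensity trend). Constitutive proteasome genes are expressed in all of these cell types, and their share in the members' values was not tested.

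Of 37 other listed genes of the ubiquitin-proteasome pathway, 27 were measured. Of these, 1 rose, 2 fell and 24 did not pass, with a median difference of 0.02. The 3 that passed are 11.1% of the list, against 12.7% of all genes. Usp14, a deubiquitinase that binds the base, fell to 11.02 and 11.08 in peri-implant, against 11.53 and 11.52 in junctional epithelium (adjusted p = 0.0110, limma with an intensity trend). Ubqln2, a shuttle that carries ubiquitinated proteins to the proteasome, fell to 11.82 and 11.85 in peri-implant, against 12.36 and 12.62 in junctional epithelium, or 1.57-fold (adjusted p = 0.00423). Ecpas, which binds core and cap together, rose to 12.36 and 12.08 in peri-implant, against 11.79 and 11.67 in junctional epithelium (adjusted p = 0.0206). In each of these genes the groups did not overlap, and with limma's default prior none of the 27 passed.

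The 3 subunits and maturation factors with other names did not pass. They were Adrm1, a ubiquitin receptor of the base (difference -0.31), Sem1 of the lid (0.13) and the core maturation factor Pomp (0.02). None of the 6 measured genes of the p97 segregase and its adaptors passed, nor did the 2 measured enzymes that activate ubiquitin, Uba1 and Uba6. The 6 listed regulators of the proteasome or of its genes, Nfe2l1, Nfe2l2, Ngly1, Akirin2, Zfand5 and Zfand2a, did not pass either. Nfe2l1 stood at 9.54 and 9.80 in peri-implant and 9.64 and 9.30 in junctional epithelium, with overlap. Akirin2 stood at 4.02 and 4.77 in peri-implant and 5.56 and 5.65 in junctional epithelium. These values were below background on all 4 arrays, so their difference was not interpreted.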

How the data were processed

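The authors deposited log2 signals for 31099 probe sets of an Affymetrix rat array on 4 arrays. The labels name neither software nor normalization. On every array the linear values had a mean of 500.2 after trimming 2% at each end, and a floor at log2 0. After leaving out 57 control probe sets, 31042 were tested. The platform annotation gave 20826 of them 1 symbol, 436 several and 9780 none, and 14217 genes resulted. Symbols were updated by gene identifier from the GRCr8 gene table.

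The groups were compared by limma 3.58.1 in R 4.3.3 (lmFit, eBayes with trend and robust prior, two-sided, 2 residual degrees of freedom) and Benjamini-Hochberg adjustment over all genes at 0.05. An earlier analysis of these data used limma's default prior first and passed no probe set, and took up the trend after that. Here the trend is the reported fit and was chosen knowing this, on the ground that low signals vary more between replicates than bright ones (median replicate SD 0.23 over all genes, 0.14 over those above background). The default prior is given beside it, and calls made with the trend alone rest on that choice. A gene that did not pass is not thereby shown to be unchanged. The members, lists and tests were chosen with earlier results of these data known. Values on each array are given for members that passed, for the highest and lowest difference in each role group, for Psmb5 and Psmb7, and for the 5 interferon-inducible genes. Psma2 and the probe sets of Psmd14, Psmd7, Psmc6, Psmd11 and Psme4 were described after their values were seen. Alternatives concerned the prior, the genes tested, the probe set, array scaling, low signals, single arrays and a replicate block.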

Additional observations from a re-analysis of the deposited data

How the results depend on the processing

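The count of higher members was 1, and it was 0 with the default prior, with a trend but no robust prior, with all probe sets adjusted together, with arrays centred on their median and without any single array (0 to 0). It was 2 with signals raised to background and 4 with the replicate block. It was 5 among genes above background on all arrays and 5 among genes with a mean above background, a setting added after seeing the data. The share of members called in either direction was below that of all genes in the same setting wherever any gene was called: 9.76% against 17.4% with the block, 14.6% against 24.6% in both settings above background and 4.88% against 12.7% with signals raised. Lower members were 0, and 1 in each of the settings that require signal above background. With the mean of all probe sets 1 member passed, Psmd14 (0.42, adjusted p = 0.0328), and not Psma7. The samples share replicate numbers only, and the deviations of same-numbered arrays correlated at 0.05. Other pathway genes higher were 1, but 0 with the default prior, with the mean of probe sets and with centring, and 0 to 1 without single arrays. Those lower were 2, but 0 with the default prior, 1 with the mean of probe sets and 0 to 1 without single arrays. The cause was not tested, beyond the fewer genes or arrays that some settings hold. The count of all genes passing was 1810, 0 with the default prior, 2470 with the block, 2168 among genes above background on all arrays, 2342 among those with a mean above it, and 241 to 398 without single arrays. In the settings not named here it lay between 1422 and 1876.

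The median of the members was 0.05 to 0.09 without single arrays and 0.01 after centring. Psmb8 minus Psmb5 shifted by 1.03 to 1.42 without single arrays. Uncalled genes near 0 changed sign. After centring, 11 members turned negative, among them Psmb7 (-0.0199), Psmc4 (-0.0350), Psmd3 (-0.0372) and Psme3ip1 (-0.0150). Without single arrays, Psma6 ran from -0.13 to 0.0153, Psmb3 from -0.28 to 0.20, Psmb7 from -0.0206 to 0.0765, Psmc4 from -0.10 to 0.12, Psmd3 from -0.21 to 0.23, Psme3ip1 from -0.0360 to 0.10 and Psme4 from -0.0737 to 0.00770. Psmb10, which is not a member, ran from -0.0638 to 0.21. The call of Psme2 was also lost after centring (adjusted p = 0.0600).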
